A study of Mus musculus with 24 samples.

Results

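Messenger RNA levels were followed in activated CD4+ T cells after transcription had been stopped with actinomycin. Every gene with a mean of at least 5 RPKM (read counts scaled to transcript length and sequencing depth) over the 4 libraries of this experiment was a member, which gave 7996 of the 22009 named genes (36.3%). Of the others, 5593 were at 0 in all 4 libraries and 8420 were above 0 with a mean under 5 RPKM. For each member the slope of log2(RPKM + 0.1) on hours was calculated, so that a slope of -0.25 is a fitted fall of 2-fold over 4 h. The mean of 5 RPKM also removes genes that start above it and fall: 224 of the 8069 genes of at least 5 RPKM at 0 h were not members.

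An mRNA that is no longer made disappears at the rate at which it is degraded, and actinomycin, which binds DNA and blocks RNA polymerase, is the classical means of reading this rate. Transcripts of cytokines, immediate-early transcription factors and signalling inhibitors are typically short-lived, and many of them carry AU-rich elements in the 3′UTR, which recruit proteins of the ZFP36 family and the deadenylases of the CCR4-NOT complex. Transcripts of ribosomal proteins and of metabolic enzymes are typically long-lived.

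The cells were CD4+ T cells purified with magnetic beads, by removal of other cells, from the spleen of WT C57BL/6 mice, although the study's methods speak of naive cells. They were stimulated for 16 h with plate-bound anti-CD3 (5 µg/ml) and soluble anti-CD28 (1 µg/ml), then kept with actinomycin for 0, 1, 2 or 4 h, and 1 library was sequenced at each time. The labels give neither the skewing condition of these cultures (Th0, Th1 or Th2) nor the dose of actinomycin, and no untreated culture was followed in parallel, so a change with time in culture and a loss through decay cannot be told apart. The other 20 libraries of the study are an activation time course, for which the study pooled the spleens of several mice, with 2 libraries of resting cells and, at 4, 8, 12, 16, 20 and 24 h, 1 library for each skewing condition.

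The libraries held 25735543, 21027320, 18740352 and 18052931 mapped reads at 0, 1, 2 and 4 h, so the depth fell with the hours. For 2220 members (27.8%) the values came out as whole reads, and intervals of their ratios cover counting error alone. The 10 T cell markers summed to between 2276 and 2503 RPKM in the 4 libraries, the 2 CD8 markers to between 3.81 and 5.90, and the 8 B cell markers to between 3.57 and 4.95. Red cell markers had the widest range in RPKM, with 2521, 1404, 1148 and 2277 RPKM at 0, 1, 2 and 4 h. Granulocyte markers varied more relative to their level, with 17.4, 18.9, 13.8 and 6.29 RPKM, and Ly6g and Retnlg were at 0 throughout. The 0 h library correlated with the 16 h cultures at r = 0.962 for Th0, 0.968 for Th1 and 0.974 for Th2, on the log2 scale across the members.

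RPKM holds the total of a library fixed, so a slope is relative to all other transcripts and a loss shared by every mRNA leaves no trace in it. The median slope was 0.00 log2 per h, the 5th percentile -0.27 and the 95th percentile 0.21, and 54.1% of the members were within 0.1 of 0. With limma, 488 of the 7996 members (6.1%) were called falling and 231 (2.89%) rising, at an adjusted p under 0.05 and a slope of at least 0.25 in size. The variance was shared by all genes of like level, with a standard error (SE) of a slope between 0.056 and 0.122, and every gene past the 2-fold limit also passed the adjusted p, so the size of the slope decided these calls. With the 2 residual degrees of freedom of each gene alone, 1 gene passed an adjusted p under 0.05, and 276 of the falling and 141 of the rising genes had an unadjusted p under 0.05. An exact permutation of the 4 times could not go below a two-sided p of 0.0833. Just inside the limits lay Smad2 (-0.2507) and Setd7 (0.2504), and just outside Nup107 (-0.2499) and Stat2 (0.2496).

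**Figure D1:**
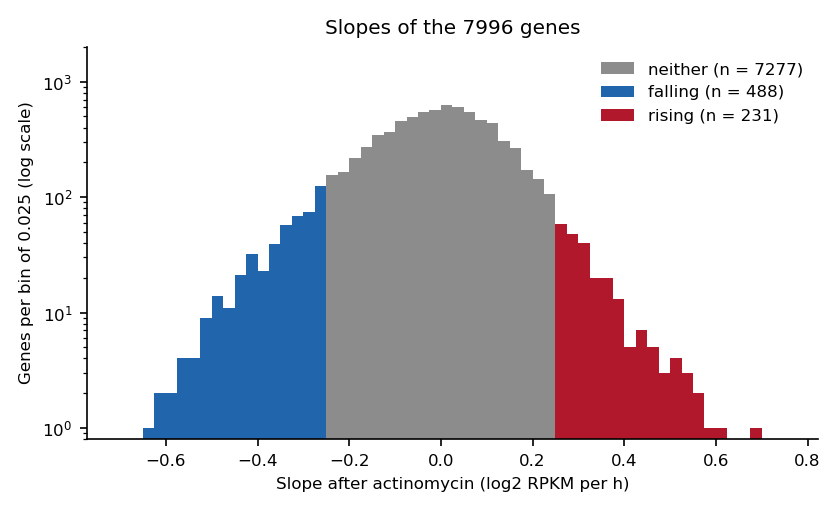
Number of genes (log scale) by slope after actinomycin in log2 RPKM per h, in bins of 0.025, for the 7996 members. The 488 genes called falling (blue) and the 231 called rising (red) form the edges of a single peak centred near 0.

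The 95% counting interval of the ratio of 4 h to 0 h lay below 1 for all 223 falling genes with whole reads and above 1 for all 45 such rising genes. These intervals use the values that made the calls and are no support for them, and of the 1952 genes called neither, 856 intervals lay below 1 and 716 above 1. The share of falling genes was 3.49% among members of 5 to 10 RPKM at 0 h, 7.25% from 20 to 50 RPKM and 7.02% from 100 to 1000 RPKM, and 3 of the 108 genes of at least 1000 RPKM were called falling. The filter on the mean removes genes that start just above 5 RPKM and fall, so the share from 5 to 10 RPKM is partly set by it. The 151 members under 5 RPKM at 0 h passed the filter through their later values, so that their 50 rising and 0 falling calls are no result.

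The 10 steepest falls included those of Nfkbia, Dusp2, Kpna2, Hspa8 and Cd69. Nfkbia encodes IκBα, which holds NF-κB in the cytoplasm, and lies on the minus strand of chr12:55489410-55492647 (GRCm38). Its level was 152 RPKM at 0 h, 86.8 at 1 h, 34.1 at 2 h and 28.9 at 4 h. The ratio of 4 h to 0 h was 0.190, with a slope of -0.61 ± 0.06 (limma SE, 4 libraries) and an adjusted p of 5.04e-23 and most of the drop came by 2 h. Dusp2, a phosphatase of MAP kinases, followed the same course, with 108, 70.0, 21.6 and 23.9 RPKM. Both had a scatter of their own above the shared SE, 0.19 for Nfkbia and 0.25 for Dusp2, since their points do not lie on a straight line. Kpna2, an importin α that carries proteins into the nucleus, fell at an even pace instead, from 109 RPKM through 67.8 and 52.9 to 22.6. Gm10184 (slope -0.63) and Gm10259 (-0.59) also stood among the 10 steepest falls, but 95.8% of the 31-base words of Gm10184 occur in Kpna2 and 98.0% of those of Gm10259 in Gm10184, so the 3 entries may share reads and their values are uncertain as separate genes.

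Hspa8, the constitutive HSC70 chaperone, was the most abundant transcript to fall, from 4056 RPKM at 0 h to 2943, 1616 and 915 RPKM. Its slope was -0.55 ± 0.08 (limma, adjusted p = 6.34e-10). However, 77.2% of its 31-base words also occur in other annotated genes, the closest being Gm15459. Cd69, the early activation antigen that keeps lymphocytes in tissue, was at 178, 132, 62.1 and 42.2 RPKM. Clec2d, a ligand of an NK cell receptor, was already low at 1 h, with 47.4, 13.1, 9.24 and 7.99 RPKM, and its slope was -0.22 without the 0 h library, which ended the call. Rpp25l and Gpr183, the receptor for oxysterols that guides lymphocytes in the spleen, completed the 10, and ended at 19.4% and 19.1% of their starting level. The other abundant falling transcripts of at least 1000 RPKM, named after their values were seen, were Hsp90aa1, with 1204 RPKM at 0 h and 532 at 4 h, and Actb, β-actin, with 1603 at 0 h and 569 at 4 h. Across the 7996 members, 22 transcripts were under 25% of their starting level at 4 h, and 486 were under 50%.

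The lists of feedback genes, immediate-early factors and cytokines had the lowest medians of the lists read. Of the 26 measured members of the list of SOCS, Pim and DUSP feedback genes, which damp cytokine and MAP kinase signalling, 14 fell (53.8%, beside 6.1% of all members), none rose and 12 passed neither limit, with a median slope of -0.28 beside 0.00 over all members. The 14 included Rgs16, which switches off G protein signals and was at 40.8, 31.6, 14.2 and 10.5 RPKM, and Dusp1, at 21.5, 8.37, 3.82 and 4.87 RPKM. Socs1, the inhibitor of JAK kinases, had the value nearest the median of its list, with 52.0, 39.2, 24.7 and 22.8 RPKM and a slope of -0.30. Socs3 had the highest slope of the list, 0.19, with 13.0, 14.3, 15.7 and 21.8 RPKM, and did not pass the 2-fold limit. Without the 0 h library the slopes of Dusp1 (-0.20) and Socs1 (-0.23) were no longer past the limits.

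In the list of immediate-early factors 12 of 22 genes fell (54.5%) and none rose, with a median slope of -0.26. Such factors are typically the regulators switched on first after a stimulus, but the list also holds Btg1 and Klf2. Their log2 changes from resting cells were -0.18 and -0.14 at 4 h of activation and -0.98 and -1.65 at 16 h. Btg1, an antiproliferative partner of the CCR4-NOT deadenylase, was at 118, 87.4, 46.3 and 29.4 RPKM. Myc, which drives growth and cell division, was at 194, 117, 49.6 and 60.5 RPKM, with a slope of -0.42 ± 0.06 (limma, adjusted p = 8.15e-12). Its level at 4 h was above that at 2 h, and without the 0 h library its slope of -0.25 no longer passed (limma, adjusted p = 0.0948). Klf2, a factor of T cell quiescence and homing, went on down instead, with 32.3, 18.3, 11.1 and 7.80 RPKM. The members of this list under the filter were lower still: Fos was at 5.75 RPKM at 0 h and 1.95 at 2 h, and 9 of the 31 genes written could not be assessed.

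Of the cytokines and chemokines, 12 of 23 fell (52.2%) and none rose, with a median slope of -0.25. Ccl4, a chemokine of activated T cells, was at 53.6, 49.9, 28.1 and 16.8 RPKM, and Cxcl10, a chemokine for CXCR3, at 22.7, 20.0, 9.90 and 7.53 RPKM. Ifng, the main cytokine of Th1 cells, was at 93.4, 67.1, 40.0 and 38.1 RPKM, with a slope of -0.33 ± 0.06 (limma, adjusted p = 4.30e-07). Il2, the growth factor of activated T cells, was at 19.2, 14.0, 5.50 and 10.0 RPKM, with a slope of -0.25 ± 0.07 (limma, adjusted p = 0.00364). Its 4 h value was higher than its 2 h value, and its own SE of 0.26 was as large as its slope, so it lies at the edge of the call. Leaving out the 0, 1 or 2 h library gave slopes of -0.08, -0.23 and -0.22, none of them past the limits, and without the 0 h library Ifng (-0.24) no longer passed either. Il13, an effector cytokine of Th2 cells, was at 6.22, 8.01, 3.14 and 3.26 RPKM, and was among the 30 falling genes whose value at 1 h was above that at 0 h. Without the 0 h library (slope -0.36, limma, adjusted p = 0.0733) or the 1 h library (-0.23) it was not called. Mif, a cytokine of high level in these libraries, had the highest slope of the list, 0.13, with 696, 967, 793 and 1093 RPKM. In the time course Mif was at 89.7 and 93.2 RPKM in the resting libraries and between 653 and 872 RPKM in the 3 cultures at 16 h. Of the 39 genes of the list in the table, 16 were under the filter, Il4, Il10, Csf2 and Il17a among them.

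**Figure D2:**
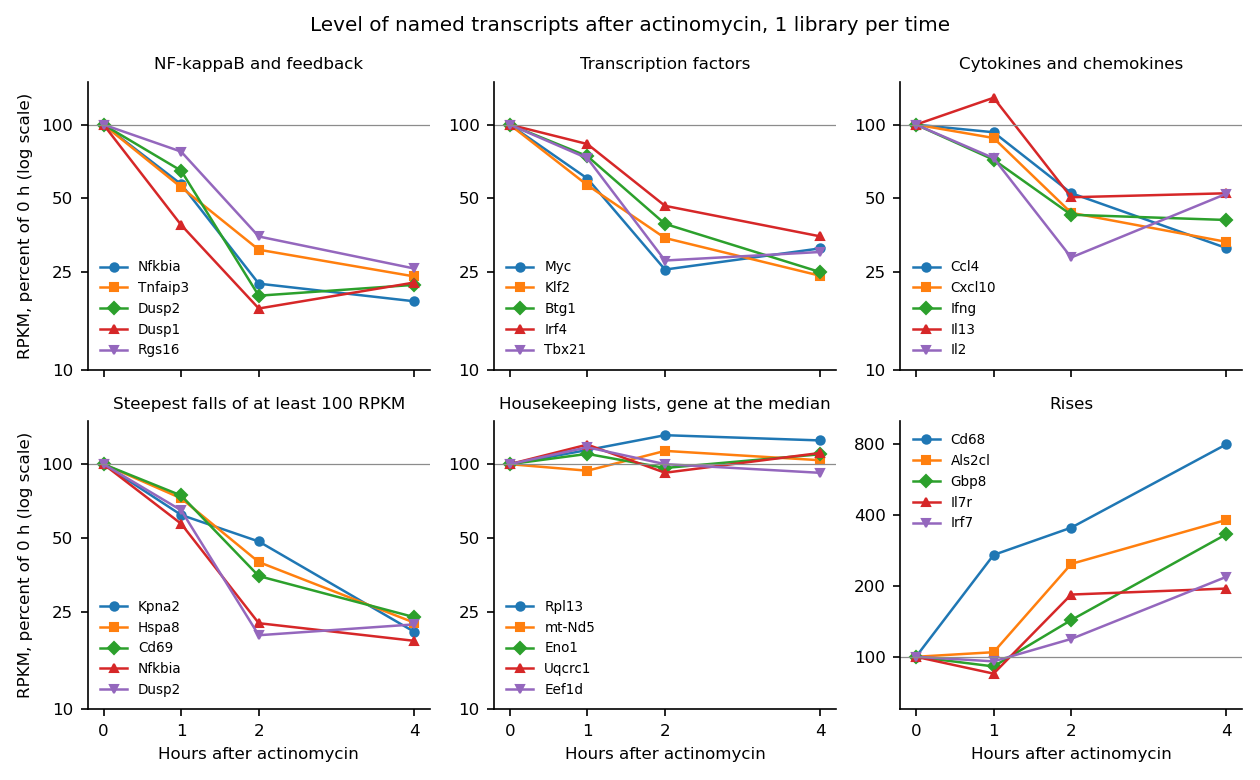
RPKM as percent of the 0 h library (log scale) against hours after actinomycin, 1 library per time, for 5 transcripts in each of 6 panels. Nfkbia, Dusp2, Dusp1 and Myc were down by 2 h and changed little or rose after it, while Kpna2 and Hspa8 went on falling to 4 h. The genes nearest the median of the housekeeping lists passed neither limit, with Rpl13 above 100% at each later time, and Cd68 was at 797% at 4 h.

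Of the 15 members of the NF-κB list 3 fell (20.0%) and none rose, with a median slope of -0.05, and Nfkbia, Tnfaip3 and Rel were the 3. Tnfaip3, the ubiquitin-editing inhibitor A20, was at 60.2, 33.4, 18.6 and 14.4 RPKM. Rel, the subunit c-Rel, was at 41.7, 35.5, 24.1 and 20.7 RPKM, while Nfkb1, the p105 and p50 subunit, was at 442, 448, 347 and 404 RPKM with a slope of -0.05. Without the 0 h library the slope of Rel was -0.24 and no longer passed.

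Of the T helper fate factors and STATs, 12 of 37 fell (32.4%) and 1 rose, with a median slope of -0.15. Tbx21, which encodes the Th1 regulator T-bet, was at 10.5, 7.68, 2.94 and 3.18 RPKM, and Gata3, the Th2 regulator, at 19.5, 17.0, 7.41 and 10.1 RPKM. Both fell, with slopes of -0.45 ± 0.09 (limma, adjusted p = 6.26e-06) and -0.26 ± 0.07 (limma, adjusted p = 0.00152). Without the 0 h library neither call held, with slopes of -0.35 and -0.18 (limma, adjusted p = 0.0903 and 0.377), and Gata3 was also lost without the 1 h (-0.23) or the 2 h library (-0.24). Irf4, which both lineages need, was far more abundant and was at 317, 265, 148 and 111 RPKM. Nfil3 (-0.47) and Foxo1 (-0.44) were the other steep falls, and Irf7, a regulator of the interferon response, rose, with 7.89, 7.54, 9.39 and 17.2 RPKM, a call lost without the 4 h library (slope 0.12). Neither Stat6 (0.07) nor Stat3 (0.05) passed the limits.

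The surface receptors in the T cell receptor list had slopes nearer to 0. Of 46 receptors 3 fell and 1 rose, a falling share of 6.52% that is near the 6.1% of all members, with a median slope of -0.02, and the 3 were Cd69, Cxcr3 (-0.35) and Pdcd1 (-0.30), which encodes the inhibitory receptor PD-1. Il7r, the receptor subunit for the survival cytokine IL-7, rose, with 15.1, 12.8, 27.8 and 29.4 RPKM, and had a slope of 0.24 without the 1 h library, just under the limit. Cd3e (-0.03), Cd3g (0.00), Icos (-0.06), Cd27 (-0.01) and Il4ra (-0.07) did not pass the limits. Cd40lg, a surface molecule outside this list that the study names as Cd154, fell (-0.35), with 17.8, 14.6, 6.49 and 7.13 RPKM. Its call was lost without the 0 h library (-0.28). In the list of survival and p53 genes 3 of 30 fell (10.0%), and they were Cdkn1a (-0.46), which encodes the cell cycle inhibitor p21, and the antiapoptotic Bcl2a1b (-0.36) and Bcl2l1 (-0.30). Without the 4 h library Cxcr3 (-0.28), Pdcd1 (-0.31) and Bcl2a1b (-0.30) kept their direction but missed the adjusted p. Reads of Bcl2a1b may be shared, since 72.4% of its 31-base words occur in Bcl2a1d.

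The interferon list had as its centre a slope of 0.00, with 1 of 37 members falling (2.70%) and 5 rising, beside 6.1% and 2.89% of all members. The genes that rose were Gbp8 (21.1, 19.2, 30.3 and 70.05 RPKM), Xaf1, Gbp9, Isg15 and Gbp4, and in Gbp8, a guanylate-binding protein, most of the rise came between 2 and 4 h. Without the 4 h library the slopes of Gbp8 (0.26), Gbp9 (0.34) and Gbp4 (0.18) did not pass (limma, adjusted p = 0.197, 0.0609 and 0.373), that of Isg15 turned to -0.31 (adjusted p = 0.281), and Gbp4 (0.24) was also lost without the 1 h library. Xaf1, at 4.11 RPKM at 0 h, was a member through its later values. Ifi47, an interferon-inducible GTPase, fell, with 193, 134, 105 and 68.2 RPKM. Of the Ifitm genes, which encode membrane proteins that restrict viruses, Ifitm1 was at 17.4, 13.9, 22.1 and 16.5 RPKM, Ifitm2 at 17.3, 18.4, 20.6 and 15.2 RPKM and Ifitm3 at 11.8, 11.2, 11.1 and 9.56 RPKM. Their slopes of 0.02, -0.05 and -0.07 did not pass the test (limma, adjusted p = 0.873, 0.630 and 0.499), and 55.5% of the 31-base words of Ifitm2 occur in other genes.

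Genes for making ribosomes and folding proteins are given beside those of the ribosome itself, and the difference between these lists was not tested. Of 49 ribosome biogenesis genes 8 fell (16.3%, beside 6.1% of all members) and none rose, with a median slope of -0.13, led by Ddx10, a nucleolar helicase at 67.3, 49.4, 37.6 and 18.1 RPKM, and Rrs1, an assembly factor at 43.2, 38.5, 16.4 and 14.1 RPKM. Of 21 heat shock and chaperonin genes 7 fell (33.3%) and none rose, with a median of -0.16, and after Hspa8 the steepest were its cochaperones Dnaja2 (-0.34) and Dnaja1 (-0.31), of which Dnaja1 was lost without the 4 h library (-0.22). None of the 84 cytosolic ribosomal protein genes passed in either direction, and their median was 0.08. Rpl13, nearest that median, was at 1618, 1848, 2125 and 2023 RPKM, and the ribosomal proteins together made up 19.8%, 22.6%, 25.1% and 24.2% of the summed RPKM.

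The remaining lists lay nearer to all members. Of the mRNA decay factors 4 of 60 fell (6.67%, near the 6.1% of all members), with a median of -0.05: Ythdf2 (-0.39), which reads methylated adenosines in mRNA and was at 41.1, 31.7, 18.95 and 14.2 RPKM, Exosc3 (-0.29) of the RNA exosome, the CCR4-NOT subunit Cnot2 (-0.28), and Zfp36l1 (-0.25), which binds AU-rich elements. Without the 0 h library Zfp36l1 (-0.040) and Cnot2 (-0.28) were not called, and neither was Zfp36l1 (-0.23) without the 2 h library or Cnot2 (-0.29) without the 4 h library. Translation factors had 5 of 39 falling (12.8%, median slope -0.05), mitochondrial ribosomal proteins 8 of 76 (10.5%, -0.06), tRNA synthetases 3 of 18 (16.7%, -0.09), proteasome subunits 2 of 37 (5.41%, -0.10), nuclear genes of oxidative phosphorylation 2 of 94 (2.13%, 0.01) and glycolysis 2 of 19 (10.5%, 0.02), and none of these had a rising member. Eif4e, the cap-binding protein, was at 106, 80.1, 71.1 and 37.0 RPKM, a call lost without the 4 h library (-0.29), and Hk2, the inducible hexokinase, at 15.6, 12.6, 6.17 and 5.35 RPKM. None of 34 cell cycle genes (median -0.05) and none of the 13 genes of the mitochondrial genome (0.03) passed, and numbered zinc fingers had 8 of 145 falling (5.52%) and 4 rising (median 0.00). Of 61 replication-dependent histone genes 4 were members, of which 2 rose (median 0.26), and of the 24 nuclear and snoRNA-host RNAs written, 1 was in the table, Zfas1 (0.13, passing neither limit).

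**Figure D3:**
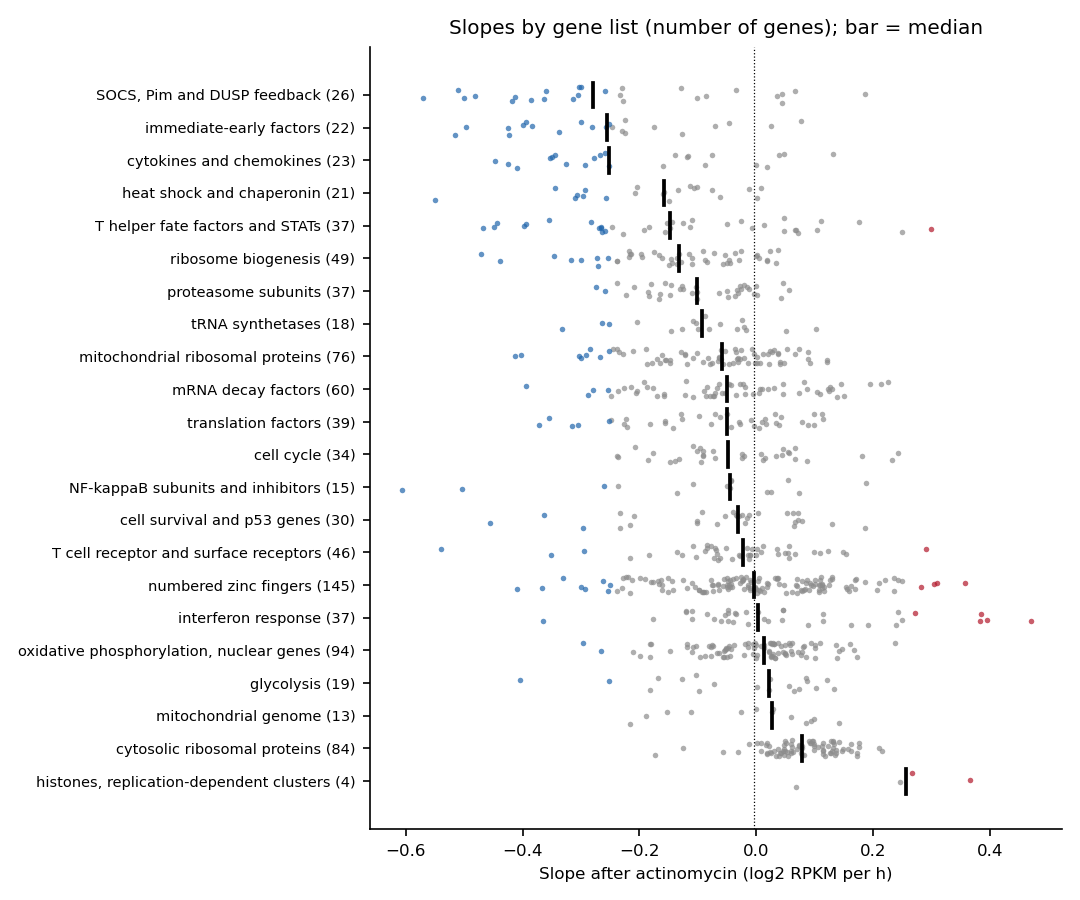
Slope after actinomycin in log2 RPKM per h for each member of the gene lists (number of genes in parentheses), ordered by the median (black bar), with falling genes in blue, rising genes in red and the others in grey. The feedback, immediate-early and cytokine lists have medians of -0.28, -0.26 and -0.25, and the cytosolic ribosomal proteins 0.08, beside 0.00 over all members (dotted line).

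The falls differed in their course. Of the 488 falling genes, 379 (77.7%) decreased at every step, beside 1156 of all members (14.5%), a share that the call itself helps to set. Their median change was -0.41 log2 per h between 0 and 2 h and -0.24 between 2 and 4 h. For the immediate-early factors the median change was -0.63 per h between 0 and 2 h and 0.12 between 2 and 4 h, and for the feedback genes -0.36 and 0.01. Ribosome biogenesis genes had -0.16 and -0.10, heat shock genes -0.16 and -0.14, and proteasome subunits 0.01 and -0.20. Over all members the medians were -0.04 and 0.03. With 1 library per time, these differences in course have no replicate check. Of the falling genes, Ighv6-5, Mpo, Il13, Trex1 and Ctsg had the largest rises at 1 h, and 97.4% of the 31-base words of Trex1 occur in Atrip, with which it overlaps. Mpo, a granulocyte enzyme, was at 8.53, 11.3, 9.34 and 2.64 RPKM. It is 1 of the 6 granulocyte markers, whose sum was lowest at 4 h, and in these bulk samples fewer cells of a type and less RNA per cell cannot be told apart.

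Of the 231 rising genes 50 started under 5 RPKM, and these were members through their later values and say nothing about level. From 5 to 10 RPKM at 0 h 68 of 1434 members rose (4.74%), and from 10 to 20 RPKM 59 of 2016 (2.93%). From 20 to 50 RPKM 33 of 2304 rose (1.43%), beside 2.89% of all members. Cd68, a lysosomal glycoprotein on chr11:69664213-69666153 (minus strand), had the highest slope, 0.69, with 3.82, 10.3, 13.5 and 30.5 RPKM. It is 1 of 10 macrophage markers, which together stood at 55.3, 66.6, 78.0 and 60.8 RPKM, with none at 0 throughout. Of these, C1qa (0.336, 1.28, 0.205 and 2.02 RPKM), C1qb, C1qc and Vcam1 were also highest at 4 h, while Lyz2 (45.9 at 0 h and 21.5 at 4 h), Csf1r (2.39 and 1.38) and Cd14 were lowest at 4 h. The part of macrophages in the values of Cd68 was not tested. In the time course Cd68 was at 30.9 and 33.2 RPKM in the resting libraries and between 2.57 and 5.27 RPKM in the 3 cultures at 16 h. Als2cl was at 29.9, 31.3, 74.2 and 114 RPKM, and Gm14085 at 9.01, 7.35, 26.2 and 34.3 RPKM, of which 52.0% of the 31-base words occur in Slc28a2. Pydc4, Caps2, Mdk, Gm9821, Ager, Apol7e and Gm21897 completed the 10 steepest rises. Of the 10, Cd68 and the first 6 of these were under 5 RPKM at 0 h and were members through their later values, and 93.3% of the 31-base words of Gm21897 and 84.4% of those of Apol7e occur in other genes. Whether any of these transcripts was still being made was not tested.

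Genes with few exons were more common among the falling genes than among all members, and 1-exon genes also among the rising genes. A coding transcript was found for 7654 members (95.7%) in GENCODE M21. Of genes with 1 exon 31 of 143 (21.7%) fell, of genes with 2 exons 72 of 245 (29.4%), with 3 or 4 exons 10.2%, with 5 to 8 exons 5.58%, with 9 to 15 exons 3.98% and with 16 or more 57 of 1789 (3.19%). Genes of 1 or 2 exons were 21.8% of the falling genes, 9.01% of the rising genes and 5.07% of all matched members. Here and for GC content and motifs, the rising genes include those under 5 RPKM at 0 h, which were members through their later values. Of the 1-exon genes 14 (9.79%) rose and of the 2-exon genes 6 (2.45%), beside 2.89% of all members. Btg1, Gpr183, Socs1, Nfil3 and Rpp25l have 2 exons and Rrs1 has 1. The 1-exon genes include processed copies of other genes: 53 shared at least 50% of their 31-base words with another gene, and of these 4 fell and 9 rose. Of the 90 others 27 (30.0%) fell and 5 rose. Of the 225 genes with 2 exons that were not such copies, 66 fell (29.3%). Across the 7654 genes, which share the same 4 libraries, Spearman's rho with the slope was -0.02 for transcript length and 0.16 for exon number.

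The GC content of the transcript moved with the slope as well. Spearman's rho between slope and GC was 0.30 across the 7654 genes, and the median GC was 47.2% in falling, 50.04% in all matched and 54.6% in rising genes. The genes were divided into 4 bins of equal size by GC content. In each bin the genes of 1 or 2 exons had a higher share of falling genes than those of 9 or more exons: 28.9% and 6.53% in the bin of lowest GC, 21.1% and 4.43% in the next, 27.5% and 2.34% in the third, and 28.2% and 1.24% in the bin of highest GC. With a straight line on GC removed from the slopes, 426 genes fell and 195 rose, of which 370 and 154 were called before. Whether base composition acted on the transcripts or on the libraries was not tested.

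**Figure D4:**
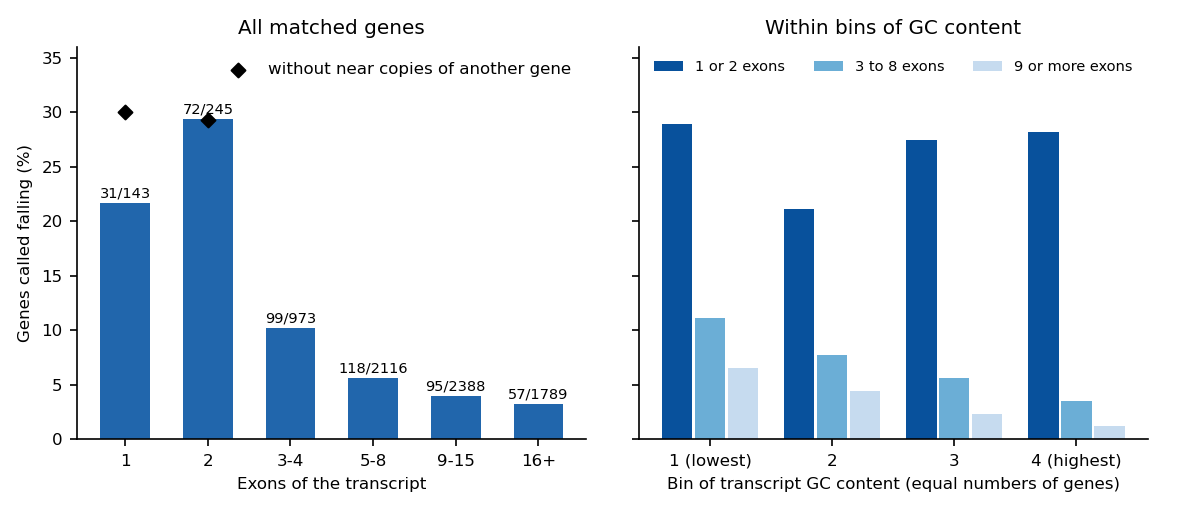
Percent of genes called falling, on the left by number of exons of the coding transcript (falling over all genes above each bar, diamonds without near copies of another gene) and on the right by exon class within 4 bins of transcript GC content. The share is 21.7% and 29.4% for 1 and 2 exons and 3.19% for 16 or more, and the order of 1 or 2 exons above 9 or more holds in all 4 bins.

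The pentamer ATTTA, the core of AU-rich elements, was present in 80.6% of the 3′UTRs of falling genes, 66.5% of all 7568 with a 3′UTR and 55.5% of rising genes. The median length of the 3′UTR was 1072, 978.5 and 785 bases in these groups, and its median GC content 40.5%, 44.3% and 49.4%. Among 3′UTRs of 500 to 2000 bases ATTTA was present in 89.1%, 74.6% and 60.7%. No motif share given here was adjusted for GC content. The nonamer TTATTTATT, which contains ATTTA, was present in 49 of 469 falling genes (10.4%), 20 of 211 rising genes (9.48%) and 7.11% of all. By length of the 3′UTR, 17.1% of the 35 genes with a nonamer and 4.84% of the 2273 without fell under 500 bases, 14.3% of 203 and 7.02% of 3118 from 500 to 2000 bases, and 4.68% of 299 and 5.55% of 1639 above 2000 bases, where the order was turned. The Pumilio motif TGTANATA was present in 30.1% of falling, 25.1% of all and 19.9% of rising genes. All motifs were read on the transcript strand alone, and these are shares across genes with no test.

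For 15 of the falling genes in the lists a nonamer could be shown with 10 bases of 3′UTR on each side in 1 exon. This is a count of sites to show and no result on the lists. Of all falling genes with a 3′UTR 10.4% held a nonamer, beside 7.11% of all genes with a 3′UTR. The site nearest the stop codon is shown for several feedback inhibitors and cytokines among them, with the nonamer in capitals and 10 bases on each side, from GENCODE M21 transcripts (GRCm38), written 5′ to 3′ on the transcript strand. Nfkbia has it at chr12:55489608-55489636 (minus), Dusp1 at chr17:26506159-26506187 (minus), Rgs16 at chr1:153745169-153745197 (plus), Cish at chr9:107301377-107301405 (plus), Il13 at chr11:53631741-53631769 (minus), Tnf at chr17:35199689-35199717 (minus) and Il2 at chr3:37120898-37120926 (minus).
Nfkbia: ggaccacgttTTATTTATTgtgcttttga
Dusp1: gagctggtccTTATTTATTtaacaccccc
Rgs16: gctgctattgTTATTTATTgtggtttgtt
Cish: tatacagtatTTATTTATTtattctcctt
Il13: cttcttgatcTTATTTATTatggttgtgt
Tnf: tttgcacttaTTATTTATTatttatttat
Il2: ttatctgaaaTTATTTATTatattgaatt

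These transcripts did not share 1 slope. Tnf holds 5 nonamers in its 3′UTR, overlapping ones included, and had a slope of -0.26, with 31.4, 20.5, 8.74 and 15.5 RPKM, a call lost without the 0 h (-0.054) or the 2 h library (-0.22), whereas Nfkbia holds 1 and had a slope of -0.61. Cish, an inhibitor of cytokine receptor signals, holds 2 and was at 94.0, 58.6, 28.5 and 39.2 RPKM, a call lost without the 0 h library (-0.13). Tnf, Cish and Il2 were each lower at 2 h than at 4 h. Of the steep falls, Dusp2, Kpna2, Hspa8, Cd69, Gpr183, Btg1 and Klf2 hold none in the annotated 3′UTR, and the transcript used for Myc has no annotated 3′UTR. Over all genes 9.41% of those with 1 nonamer and 7.96% of those with 2 or more fell, beside 5.97% of those with none.

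The 20 libraries of the activation time course, which the slopes did not use, showed where these transcripts stood during activation. The 3 skewing cultures of a time, each sequenced once from pooled cells, stood as its libraries. The p-values of this time course therefore rest on the spread between skewing conditions and do not measure the spread between mice. At 4 h, 40 of the 488 falling genes (8.20%) were at least 2-fold higher than in resting cells (limma, adjusted p under 0.05), beside 2.68% of all members, and 16 (3.28%) were lower, beside 3.99%. Of the 181 rising genes of at least 5 RPKM at 0 h, 1 was higher and 11 (6.08%) lower, beside 2.70% and 3.82% of all 7845 such members. The median log2 change of the falling genes from resting cells was 0.19 at 4 h, 0.44 at 8 h and 0.62 at 24 h, and that of these 181 rising genes 0.00, -0.30 and -0.92. The medians of the 7176 such genes called neither were 0.00, 0.05 and 0.12.

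**Figure D5:**
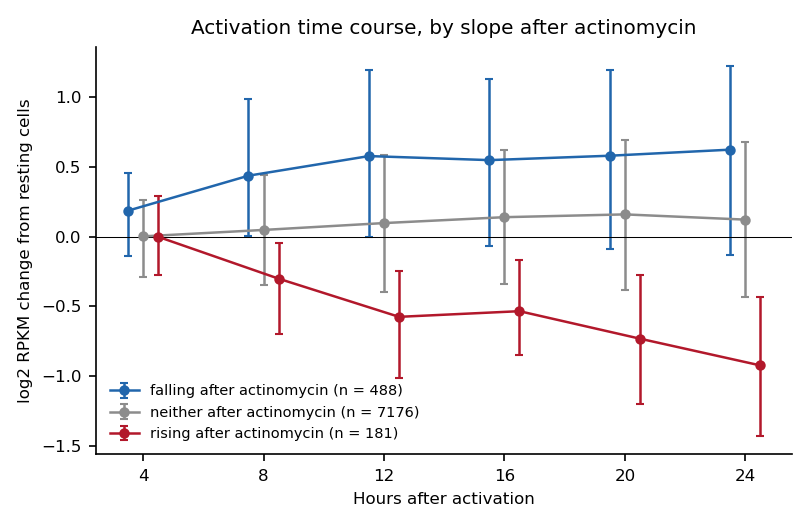
Median log2 RPKM change from resting cells against hours after activation for genes called falling, neither or rising after actinomycin, all of at least 5 RPKM at 0 h. Bars span the 25th to the 75th percentile over genes, which are not replicates, and points are shifted sideways for legibility. The median of the falling genes lies above that of the genes called neither at all 6 times, and that of the rising genes lies below it from 8 h on, with 0.00 for both at 4 h.

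Single genes took different paths. Irf4 rose from 10.4 and 10.5 RPKM in the resting libraries to between 118 and 157 RPKM in the 3 cultures at 4 h (limma, log2 change 3.70, adjusted p = 1.14e-08). Rgs16, Ccl4, Cdkn1a, Socs1, Rel, Nr4a1, Il13 and Il2 were also among the 40 that were higher. Dusp1, in contrast, was at 218 and 234 RPKM in the resting libraries and between 28.5 and 30.0 RPKM at 4 h (log2 change -2.92, limma, adjusted p = 2.41e-09), and Tnfaip3 was lower as well. Nfkbia was at 165 and 173 RPKM in the resting libraries and between 157 and 174 RPKM at 4 h. Il2 was between 75.2 and 89.5 RPKM in the 3 cultures at 16 h but at 19.2 RPKM at 0 h of actinomycin. Ccl4 (53.6 RPKM, cultures 166 to 347), Rgs16 (40.8, cultures 84.6 to 95.7) and Dusp2 (108, cultures 217 to 251) also started below all 3 cultures. Dusp1 (21.5, cultures 12.4 to 13.9) and Dnaja2 (128, cultures 102 to 107) started above them. These falling genes, named as examples, thus started outside the range of the 3 cultures, some below it and some above it. Across the members, the log2 difference between the 0 h library and the 16 h cultures had an SD of 0.45 for Th0, 0.42 for Th1 and 0.37 for Th2. Whether the cells, the cultures or the libraries differed was not tested.

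Leaving out 1 library at a time changed the counts. Without the 0 h library 249 genes fell, of which 236 were among the 488, and the share of falling genes among those of 1 or 2 exons was 14.2% in place of 26.5% (1.29% in place of 3.19% for 16 or more exons). Without the 4 h library 485 fell, but 287 of them were among the 488, and 144 rose, of which 46 were among the 231. With each library scaled to the median of the cytosolic ribosomal protein genes, the change of the median gene over 4 h was -0.41 log2 in place of -0.02, and 1072 genes fell and 45 rose. All 488 genes were among the 1072. A rise is thus relative to the total of a library.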

How the data were processed

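RNA sequencing data of 24 libraries were used. The file deposited by the authors holds RPKM, 1 value per gene symbol and library, which were analysed as they stood. The submitters' processing notes name BWA and GRCm38, and their versions are not given in the sources used here. Of 22010 entries 1 had no gene name and a sum of 0. Mapped reads were recovered from the steps of the RPKM values (tolerance 0.02 reads).

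Slopes of log2(RPKM + 0.1) on hours were fitted with limma 3.58.1 (R 4.3.3, intensity trend, Benjamini-Hochberg adjustment over 7996 genes). The time course was fitted on log2(RPKM + 0.5), with a minimum of 1 RPKM for a gene's mean, with time as a factor and the 3 cultures of a time as its libraries. Both scales understate changes of low genes. On simulated data, 200 of 200 falling and 200 of 200 rising genes of slope 0.5 were found and 0 unchanged genes were called. That slope is well past the limit of 0.25, so the simulation checks the fit and cannot measure errors in the real calls. The median slope was -0.32 for the falling and 0.30 for the rising genes with a coding transcript. Each group of the decay experiment is 1 library. The limma p-values of slopes set a slope against the scatter shared by genes of like level. They measure neither a gene's own scatter about its line nor the spread between replicates. Transcripts came from GENCODE M21. Near copies were sought as shared 31-base words on the same strand. Python 3.11.15 was used with numpy 2.4.6, pandas 2.3.3, scipy 1.17.1 and matplotlib 3.10.9.

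Genes named are, per list, the 3 steepest falls, the gene nearest the median and the steepest rise, the 10 steepest falls and rises, the 5 steepest falls of at least 100 RPKM at 0 h, the genes the study names, and the 5 falling genes with the largest rise at 1 h. Other genes are named as list members or as examples, and some items are not reported here. Members and lists were chosen with earlier results of these data known. Pseudocounts, filters, scalings, the trend and leaving out each library were varied.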

Additional observations from a re-analysis of the deposited data

How the results depend on the processing

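The single library per time limits all calls, and the depth, which fell with the hours, cannot be told apart from time. No paired analysis was possible because each time of the decay experiment has 1 library. When the minimum mean was 20 RPKM, 238 genes fell and 86 rose, since fewer genes were tested (4297), and when it was 1 RPKM, 458 rose among 10571. With ribosomal protein scaling 1072 fell and 45 rose, the median change of the falling genes between 0 and 2 h was -0.62 log2 per h in place of -0.41, and the medians of all 23 lists moved by more than the SE of a slope. With the variance of each gene alone, an alternative chosen after seeing the data, 276 fell and 141 rose. Leaving out 1 library at a time gave 249 to 485 falling and 144 to 236 rising genes, and 14.2% to 25% falling among genes of 1 or 2 exons. The lowest falling count came without the 0 h library and the lowest rising count without the 4 h library. The slope of Hist1h2bj ranged from -0.074 without the 0 h library to 0.72 without the 4 h library, that of Mpo from -0.71 to 0.065 and that of Ctsg from -0.50 to 0.12 without the same libraries, and the cause of these changes of sign was not tested. Pseudocounts of 0.5 and 1, scaling by quantiles, upper quartile or median of ratios and no intensity trend kept both counts within 1.5 times, and so did the removal of the GC line, which was chosen after seeing the data. The 2 counts of falling genes that were higher or lower at 4 h of activation stayed within 1.5 times under every alternative run for them (32 to 50 higher and 15 to 19 lower). Among 129 named genes, 20 calls were lost without the 0 h library with the direction kept, and 1 with the sign changed. Without the 4 h library these counts were 23 and 2.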

Other observations

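Genes of the lists that stayed under the mean of 5 RPKM are given here as values, chosen after they were seen and with no test. Il3, a haematopoietic growth factor, was at 2.47, 8.997, 1.27 and 2.11 RPKM at 0, 1, 2 and 4 h, the highest of its 4 values being that at 1 h. Osm, a cytokine of the IL-6 family, was at 7.70, 3.85, 1.39 and 1.21 RPKM, Il10 at 5.84, 3.09, 1.43 and 2.41 RPKM, and Prdm1, which encodes the repressor BLIMP1, at 2.39, 1.24, 0.524 and 0.589 RPKM. Il17a was at 1.03, 1.06 and 0.0911 RPKM at 0, 1 and 2 h and was listed at 0 at 4 h.

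Of the 9 genes of the interferon list under this mean, 7 had their highest value at 4 h and Ifit1 and Oasl1 their lowest. Rsad2, which encodes viperin, was at 0.843, 0.611, 0.327 and 3.03 RPKM, Oasl2 at 2.78, 2.73, 2.64 and 7.12 RPKM, Ifit3 at 2.92, 3.24, 3.61 and 6.29 RPKM, and Mx1 at 0.487, 0.683, 0.654 and 1.70 RPKM. Ifit1, in contrast, was at 2.77, 1.75, 0.984 and 0.980 RPKM, and Oasl1 at 0.883, 1.00, 0.594 and 0.481 RPKM. Of the members of the list, Isg15 took a like course, with 6.32, 5.22, 4.09 and 17.7 RPKM.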
